A study of Arabidopsis thaliana with 18 samples.

Results

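Rosettes of the Arabidopsis thaliana mutant era1 were compared with wild type (WT) rosettes at the highest of 3 nitrate supplies, 10 mM. Transcripts were measured with QuantSeq, which counts reads from the 3' end of polyadenylated RNA. All plants grew on potting soil and were harvested at the stage of first visible flower buds, per the labels. The wild type carried no mutation that the labels name, and era1 is a single knock-out line made by T-DNA insertion, per its genotype label. That label prints the locus AT5G66470, which the reference annotates as a GTP-binding protein, while the gene named ERA1 there is AT5G40280. The comparison took 6 of the 18 libraries of the series, 3 of WT and 3 of era1, and all 32744 genes of the count files, of which 18358 had enough counts to be tested. The series text calls the libraries biological replicates without saying whether each came from separate plants or from pools. The p-values of the gene tests therefore reflect a spread among libraries, estimated over all 18 of the series, which may be partly technical. An ecotype comparison is also mentioned there, but no label names an ecotype.

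The ERA1 protein is 1 of a pair of subunits of protein farnesyltransferase, the beta subunit. This enzyme attaches a farnesyl lipid to a cysteine near the C-terminus of proteins that end in a CaaX motif, which anchors them to membranes or lets them bind partners. Mutants without it are known for heightened sensitivity of seeds and guard cells to abscisic acid, the hormone of drought and seed dormancy, for altered heat tolerance and for enlarged meristems. The samples at 10 mM were the best supplied ones, and they show how the genotypes differed when nitrate was ample.

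The libraries held 4748044 to 4947560 gene counts in WT and 5532857 to 5855026 in era1, and 20738 to 20859 and 20963 to 21071 genes were detected. Both differences reached exact permutation p = 0.1, the smallest that 3 against 3 libraries allow. Read records without a unique alignment took 2.15% ± 0.222 in WT and 2.52% ± 0.261 in era1 (SD, n = 3, exact permutation p = 0.1). Replicates differed by more than sampling noise in each pair, and the era1 library 2 stood furthest from its replicates, with a chi-square per degree of freedom of 4.10 against library 3. Leaf markers such as RBCS1A were abundant in both genotypes, with 47856 and 54020 counts. Seed storage transcripts had at most 4 counts per genotype, and root markers other than PYK10 at most 3. The summed level of 7 floral organ markers was 4.07 to 5.41 counts per 1000000 (CPM) in WT and 0.715 to 2.47 CPM in era1, with no overlap (exact permutation p = 0.1). AG (AT4G18960) had 41 and 9 counts, and the other 6 had at most 13 counts each per genotype. In whole rosettes, fewer cells of a type and less RNA per cell cannot be told apart.

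In era1 at 10 mM, 2831 genes were higher and 2627 lower than in WT at a false discovery rate (FDR) under 0.05 in the quasi-likelihood test of edgeR. These were 15.4% and 14.3% of the genes tested, 29.7% in all. Most of the differences were small. The median absolute log2 fold change of called genes was 0.54, and 2-fold or more separated the genotypes for 515 higher and 439 lower genes. Differences of 4-fold or more were found for 108 higher and 97 lower genes. The groups did not overlap for 21.9% of tested genes with higher and 21.7% with lower levels in era1, whether called or not. The share of genes called was between 28.57% and 30.52% on each of the 5 chromosomes. It rose with the mean level, from 16.27% in the lowest 4590 genes by level to 43.51% in the highest 4590, while the median absolute log2 fold change of called genes fell from 1.19 to 0.38. The median over all tested genes was 0.01. All further fold changes are era1 against WT at 10 mM on the log2 scale, ± SE, unless another dose is named, and levels are CPM in libraries 1, 2 and 3 of each genotype.

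**Figure D1:**
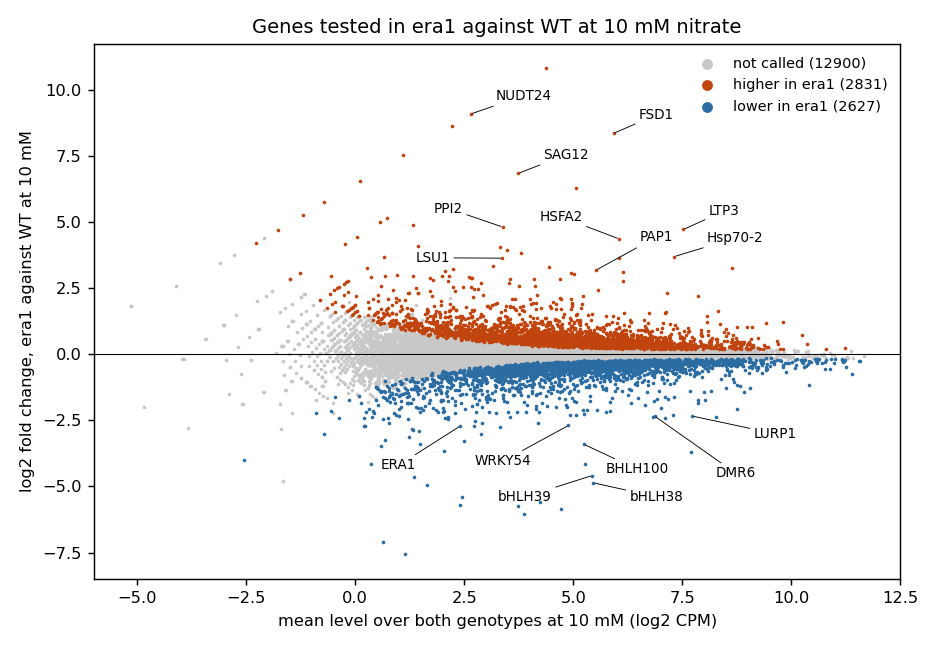
Log2 fold change of era1 against WT at 10 mM nitrate (vertical axis) over the mean level of both genotypes (horizontal axis, log2 CPM) for the 18358 genes tested, with called genes coloured by direction. The 2831 higher and 2627 lower genes spread to both sides of 0, and FSD1, HSFA2, LTP3, bHLH38 and bHLH39 lie far from it at moderate to high levels.

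Gene lists were then read one by one against those shares. The plot of lists ranks them by their median fold change. Sulfur deficiency genes, anthocyanin synthesis, abscisic acid outputs, jasmonate and heat shock stand at its top, and salicylic acid defence, phosphate starvation and the defensin branch of defence at its foot.

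**Figure D2:**
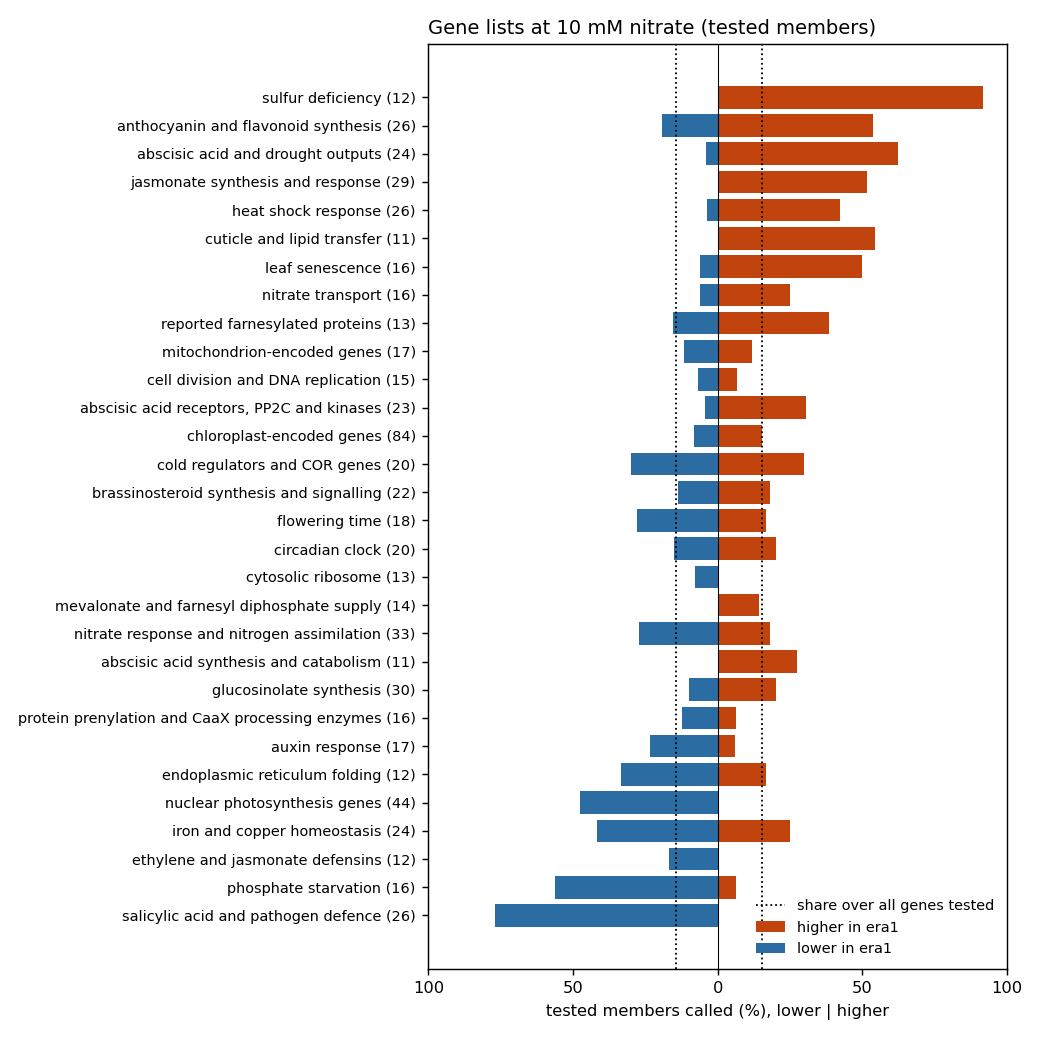
Share of the tested members of each list that were called higher (right) or lower (left) in era1 at 10 mM, with the number of tested members in brackets and lists ordered by their median log2 fold change. Dotted lines mark the shares over all tested genes, 15.4% higher and 14.3% lower, and 20 of 26 salicylic acid members were called lower against 11 of 12 sulfur deficiency members called higher.

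The prenylation machinery itself was examined first. ERA1 (AT5G40280) was measured at 9.60, 9.42 and 8.74 CPM in WT and 1.52, 1.06 and 1.61 CPM in era1, a fold change of -2.71 ± 0.23 (FDR = 3.5e-09). It was lower in 3 of 3 era1 libraries. Where the insertion lies relative to the 3' tag that was counted is not given in the sources used here, so the residual counts do not measure functional transcript. The locus printed in the genotype label, AT5G66470, was at 47.0, 42.8 and 43.7 CPM in WT and 44.2, 38.4 and 40.2 CPM in era1 and was not called (-0.12, FDR = 0.514). Of 16 tested enzymes of prenylation and CaaX processing, 1 was called higher and 2 lower, ERA1 included, with a median of -0.05. PCME (AT5G15860), a prenylcysteine methylesterase that reverses the last step of CaaX processing, was at 16.1, 16.5 and 16.2 CPM in WT and 8.94, 14.1 and 11.4 CPM in era1. It fell by 0.51 on the log2 scale (FDR = 0.0172), but the call was lost without the era1 library 1 (-0.35, FDR = 0.126). RGTB1 (AT5G12210), a beta subunit of the Rab prenyltransferase, was at 0.25 ± 0.09 (FDR = 0.0388), a call that 10 of 13 other settings did not keep. The CaaX proteases ATSTE24 (AT4G01320) and FACE2 (AT2G36305) were at 0.17 and 0.17 and were not called (FDR = 0.322 and 0.637). The subunit that ERA1 pairs with, FTA (AT3G59380), was at 26.97, 26.1 and 32.3 CPM in WT and 24.6, 25.6 and 19.5 CPM in era1. These groups did not overlap, but the fold change of -0.29 was not called (FDR = 0.0675), while without the era1 library 2 it was called at -0.37 (FDR = 0.0396). The beta subunit of the related type I prenyltransferase, which adds geranylgeranyl, PGGT-I (AT2G39550), was at 0.18 (FDR = 0.596), and the methyltransferase ATSTE14B (AT5G08335) at -0.29 (FDR = 0.164). The recycling enzymes of farnesyl, FCLY (AT5G63910), FLDH (AT4G33360) and FOLK (AT5G58560), were at -0.15, 0.23 and 0.20, and none was called.

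Of 14 genes of mevalonate and farnesyl diphosphate supply, 2 were called higher and none lower. These were the isomerase IPP1 (AT5G16440) at 0.59 ± 0.18 (FDR = 0.0127) and the reductase HMG1 (AT1G76490) at 0.22 ± 0.08 (FDR = 0.0298). Without the era1 library 3 their values were 0.36 (FDR = 0.136) and 0.24 (FDR = 0.0509), and HMG1 lost its call in each leave-one-out fit but that without the WT library 3. Both farnesyl diphosphate synthases stayed uncalled, FPS1 (AT5G47770) at -0.17 and FPS2 (AT4G17190) at 0.16.

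Proteins reported to be farnesylated were followed at their transcripts. Of 13 tested members 5 were called higher and 2 lower, with a median of 0.22. The count of higher members was 3 without the WT library 2, without the WT library 3 and without the era1 library 1. J3 (AT3G44110), a DnaJ co-chaperone and a known farnesyltransferase substrate, stood at 294, 320.1 and 316 CPM in WT and 515, 481 and 524 CPM in era1. Its homologue J2 (AT5G22060) was at 70.9, 81.6 and 70.8 CPM in WT and 116, 116 and 116 CPM in era1. The groups did not overlap for either gene, with fold changes of 0.71 ± 0.07 (FDR = 4.1e-08) and 0.64 ± 0.11 (FDR = 6.1e-05). FP6 (AT4G38580), a farnesylated metal-binding protein, rose by 0.53 ± 0.12 (FDR = 0.00142). Lower levels were found for the cytokinin synthesis gene IPT3 (AT3G63110) (-0.57 ± 0.13, FDR = 0.00137) and the Aux/IAA repressor ATAUX2-11 (AT5G43700) (-0.47 ± 0.10, FDR = 0.000757). BR6OX2 (AT3G30180), the last enzyme of brassinosteroid synthesis, was not called (0.22 ± 0.13, FDR = 0.209).

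Iron and copper genes held large changes in both directions. Of 24 tested members 6 were called higher and 10 lower, with a median of -0.20. bHLH38, bHLH39, BHLH100 and BHLH101 are the 4 transcription factors of a subgroup that rises under iron deficiency and acts with FIT on iron uptake genes. bHLH38 (AT3G56970) stood at 86.4, 88.6 and 80.4 CPM in WT and 3.71, 1.94 and 3.04 CPM in era1. bHLH39 (AT3G56980) stood at 85.6, 78.4 and 84.9 CPM in WT and 4.05, 2.47 and 3.75 CPM in era1. BHLH100 (AT2G41240) was at 72.5, 67.2 and 68.9 CPM in WT and 6.07, 4.41 and 9.11 CPM in era1. All era1 libraries lay below all WT libraries for these genes. The fold changes were -4.86 ± 0.35 (FDR = 2e-10), -4.59 ± 0.32 (FDR = 8.46e-11) and -3.41 ± 0.27 (FDR = 7.46e-10). The fourth, BHLH101 (AT5G04150), fell as well (-1.93 ± 0.19, FDR = 3.46e-08). Among further iron genes of the list, the mitochondrial ferric reductase FRO3 (AT1G23020) was at -0.76 ± 0.12 (FDR = 2.78e-05). The regulator POPEYE, PYE (AT3G47640), was at -0.44 ± 0.12 (FDR = 0.0072), and the ferritin FER3 (AT3G56090) was at -0.75 ± 0.11 (FDR = 2.24e-05).

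The opposite direction was taken by the iron superoxide dismutase of plastids, FSD1 (AT4G25100), which had 5 counts over the WT libraries. Its level was 0.613, 0.214 and 0.208 CPM in WT and 142, 94.7 and 127 CPM in era1, a fold change of 8.35 ± 0.41 (FDR = 1.62e-13). The value was 9.01 without the WT library 1. Copper/zinc enzymes share its role. Plastid CSD2 (AT2G28190) was at 727, 800.2 and 827 CPM in WT and 617, 584 and 621 CPM in era1, a fall of 0.37 (FDR = 0.000206), and their copper chaperone CCS (AT1G12520) fell by 0.49 (FDR = 2.16e-05). Cytosolic CSD1 (AT1G08830) rose slightly (0.19 ± 0.07, FDR = 0.0352), with groups that overlapped. The nicotianamine synthase NAS3 (AT1G09240) was at 8.99, 5.57 and 6.04 CPM in WT and 26.99, 26.8 and 26.3 CPM in era1 and rose by 1.95 ± 0.20 (FDR = 7.37e-08), NAS1 (AT5G04950) rose by 0.99 ± 0.15 (FDR = 1.66e-05), and the metal-nicotianamine transporter YSL1 (AT4G24120) rose by 1.58 ± 0.21 (FDR = 3.36e-06). Other synthesis and transport genes of metals were not called, with NAS4 (AT1G56430) at -0.06, OPT3 (AT4G16370) at -0.07, YSL3 (AT5G53550) at -0.18, NRAMP3 (AT2G23150) at -0.27, NRAMP4 (AT5G67330) at -0.22 and COPT2 (AT3G46900) at 0.92. The ferritin FER1 (AT5G01600) was at 0.69 ± 0.19 (FDR = 0.00753), opposite to FER3.

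**Figure D3:**
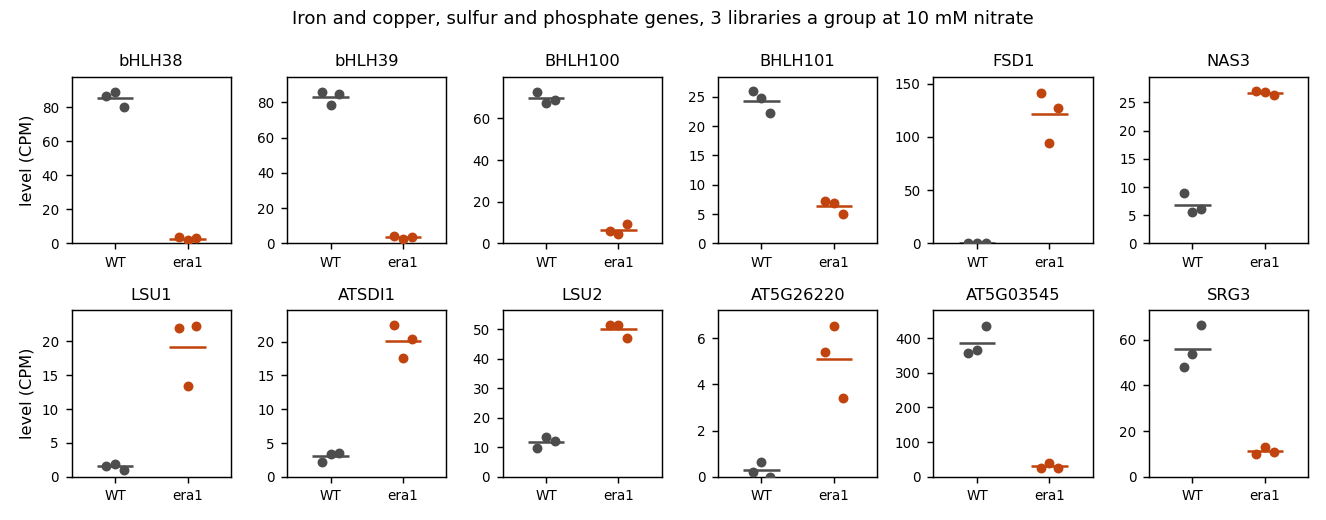
Levels (CPM, vertical axes from 0) in each of the 3 WT and 3 era1 libraries at 10 mM for 6 iron and copper genes, 4 sulfur genes and 2 phosphate genes, with bars at the group means. In each panel the groups do not overlap: the bHLH factors, AT5G03545 and SRG3 are lower in era1, and FSD1, NAS3 and the sulfur genes are higher.

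Sulfur deficiency genes were higher in era1 almost without exception. Of 12 tested members 11 were called higher and none lower, with a median of 0.89. LSU1 (AT3G49580), a marker of low sulfur, stood at 1.63, 1.93 and 1.04 CPM in WT and 21.9, 13.4 and 22.3 CPM in era1. LSU2 (AT5G24660) stood at 9.81, 13.5 and 12.3 CPM in WT and 51.4, 51.7 and 47.0 CPM in era1, and ATSDI1 (AT5G48850), which dampens glucosinolate synthesis when sulfur is short, at 2.25, 3.43 and 3.54 CPM in WT and 22.4, 17.6 and 20.4 CPM in era1. All era1 libraries lay above all WT libraries for these 3 genes. The fold changes were 3.63 ± 0.36 (FDR = 4.59e-08), 2.08 ± 0.14 (FDR = 6.5e-11) and 2.71 ± 0.25 (FDR = 1.4e-08). AT5G26220, annotated as a ChaC-like protein, was at 0.204, 0.642 and 0 CPM in WT and 5.40, 6.52 and 3.39 CPM in era1, a fold change of 4.09 that became 5.34 without the WT library 2. In the assimilation pathway, APR3 (AT4G21990) was at 29.8, 33.8 and 38.9 CPM in WT and 72.5, 80.4 and 73.1 CPM in era1. Its fold change was 1.14 ± 0.10 (FDR = 3.74e-09), and the other adenosine phosphosulfate reductases APR2 (AT1G62180) and APR1 (AT4G04610) were at 0.54 ± 0.07 (FDR = 2.37e-06) and 0.51 ± 0.08 (FDR = 4.35e-05). Vacuolar sulfate export genes followed, with SULTR4;2 (AT3G12520) at 1.64 ± 0.47 (FDR = 0.00977) and SULTR4;1 (AT5G13550) at 0.42 ± 0.10 (FDR = 0.00181). The member not called was the uptake transporter SULTR1;2 (AT1G78000), at 0.409, 0.428 and 0.416 CPM in WT and 0.843, 0.529 and 0.357 CPM in era1.

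Phosphate starvation genes moved the other way. Of 16 tested members 1 was called higher and 9 lower, with a median of -0.43. AT5G03545, annotated as expressed in response to phosphate starvation, was at 357, 366 and 436 CPM in WT and 25.98, 39.9 and 24.7 CPM in era1. The noncoding RNA IPS1 (AT3G09922), which sequesters miR399, had 45 counts over the WT libraries and 0 over the era1 libraries. With the group's floor of 3 counts in place of 0, IPS1 was at least 18.0-fold lower in era1. SRG3 (AT3G02040), a glycerophosphodiester phosphodiesterase, stood at 48.0, 53.5 and 66.4 CPM in WT and 10.1, 12.9 and 10.9 CPM in era1. The groups did not overlap for any of these, and the fold changes of AT5G03545 and SRG3 were -3.68 ± 0.17 (FDR = 6.63e-14) and -2.31 ± 0.14 (FDR = 9.16e-12). The phosphate sensor SPX1 (AT5G20150) was at -0.98 ± 0.12 (FDR = 9.13e-07), and the sulfolipid synthesis genes SQD2 (AT5G01220) and SQD1 (AT4G33030) were at -0.86 ± 0.09 (FDR = 1.76e-07) and -0.47 ± 0.09 (FDR = 0.000382). The ubiquitin-conjugating enzyme PHO2 (AT2G33770), which restrains phosphate uptake, fell as well (-0.31 ± 0.09, FDR = 0.00942). PPCK1 (AT1G08650), the kinase of phosphoenolpyruvate carboxylase, was the member that rose, from 2.66, 2.36 and 2.71 CPM in WT to 8.94, 8.64 and 9.47 CPM in era1 (1.80 ± 0.23, FDR = 1.96e-06).

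Heat shock genes were higher in era1. No heat treatment is named in the labels. Of 26 tested members 11 were called higher and 1 lower, with a median of 0.43. HSFA2 (AT2G26150), the heat-induced transcription factor that prolongs the response, stood at 4.29, 7.92 and 6.25 CPM in WT and 135, 125 and 119 CPM in era1. Hsp70-2 (AT5G02490), a cytosolic chaperone, stood at 17.8, 27.2 and 23.9 CPM in WT and 303, 287 and 299.8 CPM in era1. HSP90.1 (AT5G52640) stood at 54.6, 53.3 and 36.2 CPM in WT and 217, 266 and 231 CPM in era1. No library of one genotype reached the range of the other for these 3 genes, and the fold changes were 4.36 ± 0.23 (FDR = 5.49e-13), 3.69 ± 0.20 (FDR = 8.64e-13) and 2.31 ± 0.18 (FDR = 9.02e-10). The disaggregase HSP101 (AT1G74310) rose by 1.75 ± 0.21 (FDR = 6.31e-07). The near-identical HSP90 genes HSP81-2 (AT5G56030) and HSP81-3 (AT5G56010) were at 1.21 and 1.20, and reads may have been split between them and between Hsp70-2 and HSC70-1. Small heat shock genes were divided. Outside the list and annotated as HSP20-like, AT1G07400 rose by 3.04 ± 0.18 (FDR = 3.61e-12) and AT5G51440 by 3.06 ± 0.20 (FDR = 2.2e-11). The listed HSP17.4 (AT3G46230) (0.36, FDR = 0.525) and HSP18.2 (AT5G59720) (0.49, FDR = 0.323) were not called. Further small chaperones outside the list were looked up after the values were seen. Of these AT5G37670 rose by 1.20 ± 0.29 (FDR = 0.00244) and AT4G25200 was not called (2.15, FDR = 0.154). Both, like AT1G07400, were among the members first written into the list. Their written names did not match the reference table, so the counts of the list leave them out. The upstream regulator DREB2A (AT5G05410) was not called either (0.24, FDR = 0.596). The member that fell was HSA32 (AT4G21320), which sustains acquired thermotolerance, at -1.0 ± 0.15 (FDR = 1.36e-05). The AAA ATPase AtCDC48B (AT3G53230), a protein-extracting enzyme not on the list, was at 12.9, 17.8 and 13.5 CPM in WT and 120.1, 138 and 121 CPM in era1 and rose by 3.10 ± 0.19 (FDR = 6.84e-12).

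Chaperones of the endoplasmic reticulum did not follow the cytosolic ones. Of 12 tested members 2 were called higher and 4 lower, with a median of -0.14. The inducible luminal chaperone BIP3 (AT1G09080) was at 33.5, 37.5 and 29.98 CPM in WT and 8.43, 9.70 and 8.04 CPM in era1, with no overlap between the groups. It fell by 1.94 on the log2 scale (FDR = 5.49e-07). Calnexin, CNX1 (AT5G61790), and the stress-activated transcription factor BZIP60 (AT1G42990) were at -0.36 ± 0.08 (FDR = 0.00118) and -0.46 ± 0.11 (FDR = 0.00188). The 2 higher members, SDF2 (AT2G25110) and PDIL1-1 (AT1G21750), were at 0.30 and 0.27 and lost their calls in 8 and 7 of 13 other settings, so 0 members were called higher in several of them.

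Abscisic acid and drought outputs were higher in era1. Of 24 tested members 15 were called higher and 1 lower, with a median of 0.73. LTP3 (AT5G59320), a lipid transfer protein of the stress response, stood at 19.0, 12.8 and 8.54 CPM in WT and 336, 452 and 276 CPM in era1. Its neighbour in sequence LTP4 (AT5G59310) stood at 12.1, 10.3 and 7.29 CPM in WT and 107, 159 and 105 CPM in era1, and LTI65 (AT5G52300), also known as RD29B, at 5.72, 3.21 and 2.91 CPM in WT and 26.3, 66.0 and 26.4 CPM in era1. All era1 libraries were above all WT libraries, and the era1 library 2 was the highest for each. The fold changes were 4.71 ± 0.34 (FDR = 1.66e-10), 3.64 ± 0.32 (FDR = 6.16e-09) and 3.31 ± 0.49 (FDR = 1.53e-05). Reads of LTP3 and LTP4 may be shared, as the copies are alike. RD20 (AT2G33380), a caleosin of stomata and drought, was at 169, 164 and 149 CPM in WT and 372, 383 and 370.4 CPM in era1 and rose by 1.22 ± 0.10 (FDR = 3.4e-09). The transcription factor RD26 (AT4G27410), the galactinol synthase GolS2 (AT1G56600) and the dehydrin RAB18 (AT5G66400) rose by 0.96 ± 0.12 (FDR = 7.86e-07), 1.10 ± 0.12 (FDR = 1.77e-07) and 0.88 ± 0.22 (FDR = 0.00312). The membrane protein TSPO (AT2G47770) was at 15.1, 9.85 and 5.83 CPM in WT and 29.5, 55.9 and 29.5 CPM in era1 and rose by 1.89 ± 0.36 (FDR = 0.000322). The transcript that fell was ERD15 (AT2G41430), a repressor of abscisic acid responses, at -0.41 ± 0.08 (FDR = 0.000665). In a fit of only the libraries at 10 mM without the era1 library 2, chosen after seeing the data, LTP3, LTP4 and LTI65 were again called higher, and LTI65 was at 2.72.

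Upstream of these outputs fewer members were called. Of 23 tested receptors, phosphatases, kinases and transcription factors 7 were called higher and 1 lower, with a median of 0.13, and 2 were called lower without the era1 library 2. The clade A phosphatases HAI1 (AT5G59220) and HAI2 (AT1G07430), are themselves induced by abscisic acid. HAI1 stood at 11.9, 9.21 and 8.54 CPM in WT and 35.3, 40.03 and 28.8 CPM in era1, and HAI2 at 14.1, 14.3 and 11.5 CPM in WT and 39.8, 69.8 and 38.6 CPM in era1. Their fold changes were 1.81 ± 0.19 (FDR = 1.35e-07) and 1.89 ± 0.23 (FDR = 7.59e-07), and no era1 library fell in the WT range. The kinase SNRK2.2 (AT3G50500) rose by 0.94 ± 0.14 (FDR = 1.18e-05). SNRK2.3 (AT5G66880), its close relative, was at 0.73 ± 0.20 (FDR = 0.00802) and lost the call without the WT library 3 (0.52, FDR = 0.072). The guard cell kinase OST1 (AT4G33950) was not called (0.36, FDR = 0.0853), nor were the receptors PYR1 (AT4G17870) and PYL1 (AT5G46790). The receptor PYL4 (AT2G38310) was at -0.44 ± 0.13 (FDR = 0.0138), a call lost without the era1 library 3 (-0.36, FDR = 0.0818). Of 11 genes of abscisic acid synthesis and catabolism 3 were called higher and none lower, and 1 was called higher without the era1 library 3. The count of lower members was 1 without the era1 library 2, 2 with a replicate block, with no low-count filter or with only the 10 mM libraries, and 3 in that last fit without the era1 library 2. BGLU18 (AT1G52400), which releases abscisic acid from its glucose ester, was at 257, 261 and 226 CPM in WT and 469, 482 and 484 CPM in era1 and rose by 0.95 ± 0.11 (FDR = 2.6e-07). The carotenoid dioxygenase NCED4 (AT4G19170) rose by 0.38 ± 0.11 (FDR = 0.00891), a call lost without the era1 library 3 (0.31, FDR = 0.0624). The catabolic enzyme CYP707A1 (AT4G19230) was at 0.204, 0.214 and 0.416 CPM in WT and 0.675, 1.41 and 1.25 CPM in era1, few counts, and was called at 1.90 ± 0.58 (FDR = 0.0197), a call lost in 6 of 11 other settings that tested it. The synthesis enzyme of drought, NCED3 (AT3G14440), was at 17.8, 14.6 and 14.4 CPM in WT and 11.0, 11.3 and 11.4 CPM in era1 and was not called (-0.47, FDR = 0.0653).

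The cold regulated genes split. Of 20 tested members 6 were called higher and 6 lower, with a median of 0.12. COR413IM1 (AT1G29395) and ERD10 (AT1G20450) rose by 0.81 ± 0.13 (FDR = 7.01e-05) and 0.57 ± 0.09 (FDR = 2.02e-05). COR15A (AT2G42540) and COR15B (AT2G42530), plastid membrane protectors induced by cold, went the other way. COR15A stood at 784, 733 and 761 CPM in WT and 317, 314 and 298 CPM in era1, and COR15B at 76.2, 70.4 and 67.0 CPM in WT and 31.7, 28.0 and 32.0 CPM in era1. Both sets of era1 libraries lay below WT, with fold changes of -1.29 ± 0.10 (FDR = 3.65e-10) and -1.22 ± 0.11 (FDR = 4.2e-09).

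Salicylic acid and pathogen defence genes were lower in era1 at 10 mM. Of 26 tested members 20 were called lower and none higher, with a median of -1.16. WRKY54 (AT2G40750) stood at 48.8, 55.2 and 50.0 CPM in WT and 7.59, 7.05 and 9.11 CPM in era1. WRKY70 (AT3G56400), a relative that acts with it downstream of NPR1, stood at 364, 383 and 327 CPM in WT and 113, 92.1 and 118 CPM in era1. ACD6 (AT4G14400), an ankyrin protein that promotes salicylic acid accumulation, was at 676, 715 and 691 CPM in WT and 168, 144 and 179 CPM in era1. The groups were apart in each case, and the fold changes were -2.69 ± 0.22 (FDR = 2.09e-09), -1.73 ± 0.14 (FDR = 2.33e-09) and -2.08 ± 0.14 (FDR = 3.67e-11). DMR6 (AT5G24530), a hydroxylase that inactivates salicylic acid, fell with them, from 183, 219.9 and 181 CPM in WT to 39.6, 37.9 and 37.7 CPM in era1 (-2.34 ± 0.13, FDR = 9.76e-13). The receptor NPR1 (AT1G64280) was at -0.81 ± 0.09 (FDR = 3.5e-07), its partner NIMIN1 (AT1G02450) at -2.20 ± 0.31 (FDR = 8.08e-06), and the immune hub EDS1 (AT3G48090) at -1.23 ± 0.14 (FDR = 3.86e-07). Of the synthesis genes, the isochorismate synthase EDS16 (AT1G74710) was at -0.47 (FDR = 0.0107), and the transporter EDS5 (AT4G39030) and the conjugating enzyme PBS3 (AT5G13320) were not called (0.06 and 0.34). The marker PR1 (AT2G14610) was at 14.7, 24.2 and 12.1 CPM in WT and 8.10, 6.52 and 5.72 CPM in era1, without overlap, but its fold change of -1.31 was not called (FDR = 0.0649). Outside the list, the infection-induced LURP1 (AT2G14560) was at 280.2, 445 and 339 CPM in WT and 74.6, 62.4 and 72.9 CPM in era1 and fell by 2.34 on the log2 scale (FDR = 5.68e-10). The ankyrin gene ANK (AT5G54610) was at 163, 221 and 191 CPM in WT and 40.8, 30.5 and 38.8 CPM in era1 and fell by 2.38 (FDR = 1.46e-11), without overlap. The transcription factors WRKY51 (AT5G64810) and ERF6 (AT4G17490) fell by 2.17 each (FDR = 4.69e-05 and 2.06e-06). The kinase gene AT1G35710, with leucine-rich repeats, fell by 2.30 (FDR = 5.82e-13).

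Jasmonate genes were higher. Of 29 tested members 15 were called higher and none lower, with a median of 0.43. The lowest fold change in the list was -1.89, which was not called. The count of lower members was 1 without the WT library 1, with no low-count filter and with only the 10 mM libraries. It was also 1 in that last fit without the era1 library 2. LOX2 (AT3G45140), the plastid lipoxygenase at the start of jasmonate synthesis, stood at 166, 163 and 137 CPM in WT and 486, 476 and 476 CPM in era1. VSP1 (AT5G24780), a storage protein of the wound response, stood at 8.79, 5.996 and 6.45 CPM in WT and 23.3, 26.5 and 16.3 CPM in era1, and AOC1 (AT3G25760), an allene oxide cyclase, at 22.9, 19.3 and 16.4 CPM in WT and 44.7, 47.8 and 44.0 CPM in era1. The era1 libraries were above the WT libraries throughout, with fold changes of 1.63 ± 0.10 (FDR = 9.03e-12), 1.63 ± 0.29 (FDR = 0.000128) and 1.22 ± 0.14 (FDR = 5.95e-07). The receptor COI1 (AT2G39940) rose by 0.68 ± 0.10 (FDR = 1.66e-05). The master regulator MYC2 (AT1G32640) was not called (0.17, FDR = 0.289), nor were the catabolic genes CYP94B3 (AT3G48520) (-0.65) and CYP94C1 (AT2G27690) (-0.57). Defensin and ethylene branch genes showed no member called higher and 2 of 12 called lower, ERF2 (AT5G47220) at -0.47 ± 0.17 (FDR = 0.0371) and ERF104 (AT5G61600) at -0.68 ± 0.22 (FDR = 0.0197). Both of these lost their calls in several fits that left out a library, and 0 of 12 were called without the WT library 1 or without the era1 library 2. Higher members of this list numbered 1 with no low-count filter. They numbered 2 with only the 10 mM libraries, with or without the era1 library 2. The defensin PDF1.2 (AT5G44420) had at most 1.02 CPM in any library at 10 mM.

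**Figure D4:**
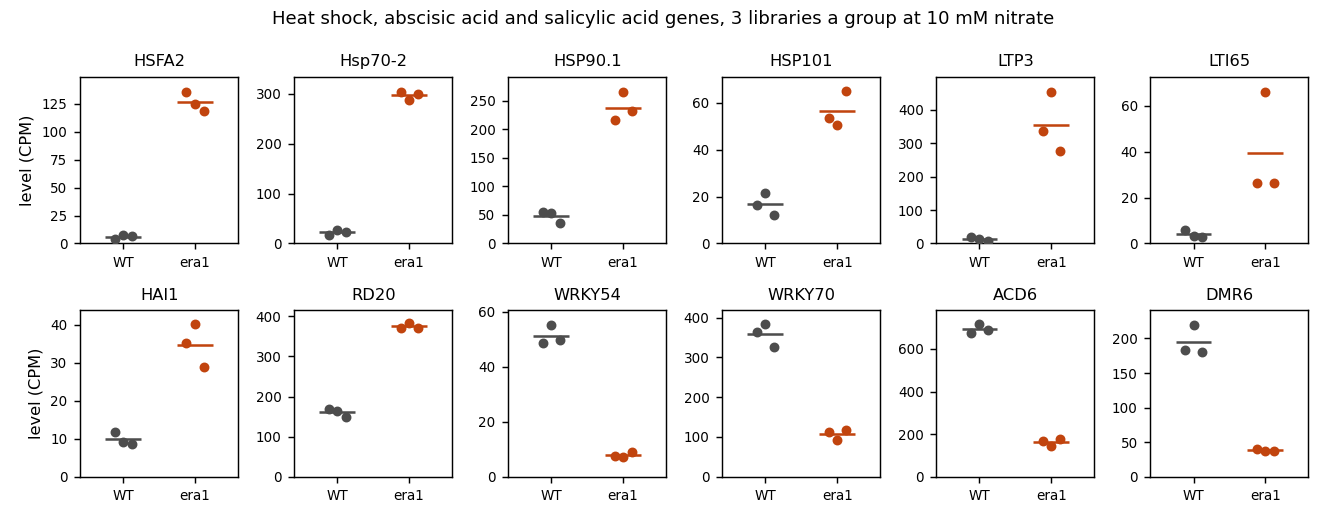
Levels (CPM, vertical axes from 0) in each of the 3 WT and 3 era1 libraries at 10 mM for 4 heat shock genes, 4 abscisic acid genes and 4 salicylic acid genes, with bars at the group means. The heat shock and abscisic acid genes are higher in each era1 library and the salicylic acid genes lower in each, and the era1 library 2 of LTI65 stands above its replicates.

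Late steps of anthocyanin synthesis were higher, and entry enzymes of the phenylpropanoid pathway were lower. Of 26 tested members 14 were called higher and 5 lower, with a median of 0.77. PAP1 (AT1G56650), the MYB transcription factor that switches on the pathway, stood at 8.58, 9.42 and 9.37 CPM in WT and 85.0, 92.4 and 70.4 CPM in era1. DFR (AT5G42800), the reductase that commits flavonoids to anthocyanin, stood at 14.5, 16.3 and 13.5 CPM in WT and 74.7, 97.9 and 67.4 CPM in era1. GSTF12 (AT5G17220), the transferase that carries the pigment to the vacuole, was at 6.54, 7.28 and 5.20 CPM in WT and 44.5, 54.8 and 37.5 CPM in era1. None of the era1 libraries overlapped WT, with fold changes of 3.18 ± 0.15 (FDR = 1.12e-13), 2.44 ± 0.21 (FDR = 3.19e-09) and 2.84 ± 0.25 (FDR = 5.09e-09). LDOX (AT4G22880), UF3GT (AT5G54060) and AT5MAT (AT3G29590), which oxidise, glycosylate and acylate anthocyanins, were at 1.94, 2.93 and 2.87 and were each called. Entry enzymes of the phenylpropanoid pathway were lower. PAL1 (AT2G37040) was at 75.4, 84.8 and 81.6 CPM in WT and 59.0, 60.5 and 60.0 CPM in era1, PAL2 (AT3G53260) at 92.0, 104 and 107 CPM in WT and 74.0, 67.9 and 76.6 CPM in era1 and C4H (AT2G30490) at 376, 398 and 401 CPM in WT and 283, 324 and 273 CPM in era1. They fell by 0.43, 0.47 and 0.42 on the log2 scale (FDR = 0.00572, 0.000267 and 0.000198). MYBL2 (AT1G71030), a MYB gene of the list, was also called lower, at -0.45, a call lost in 3 of 13 other settings. The count of lower members was 3 without the WT library 1 and without the era1 library 3. MYB113 (AT1G66370) had 0 counts over the WT libraries and 7 over the era1 libraries, and its call was lost in 5 of 6 fits that left out a library. The glycosyltransferase AT4G14090, which has no symbol in the reference table, rose by 2.82 ± 0.22 (FDR = 7.21e-10). It had been written into the list as UGT75C1 and is left out of its counts.

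Senescence genes gave a mixed picture. Of 16 tested members 8 were called higher and 1 lower, with a median of 0.31. SAG12 (AT5G45890), a cysteine protease of late leaf senescence, had 3 counts over the WT libraries and 457 over the era1 libraries, a ratio of 127 (exact 95% interval 43.3 to 619, counting error only). Its level in era1 was 35.3, 8.64 and 35.6 CPM, with library 2 the lowest, and its fitted fold change of 6.84 became 7.71 without the WT library 2. The regulators NAC6 (AT5G39610), known as ORE1, and NAP (AT1G69490) rose by 1.29 ± 0.15 (FDR = 6.49e-07) and 0.76 ± 0.19 (FDR = 0.00354). SAG29 (AT5G13170) was at 31.1, 19.3 and 13.5 CPM in WT and 56.2, 72.7 and 51.5 CPM in era1 and rose by 1.49 ± 0.28 (FDR = 0.000285). SEN1 (AT4G35770), a dark-induced gene, fell from 77.2, 60.2 and 45.2 CPM to 12.5, 16.6 and 13.8 CPM (-2.09 ± 0.23, FDR = 1.53e-07). Early markers SAG13 (AT2G29350), SAG21 (AT4G02380) and WRKY53 (AT4G23810) were not called (0.24, -0.06 and -0.35).

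Cuticle and lipid transfer genes were higher. Of 11 tested members 6 were called higher and none lower, with a median of 0.34. LTP2 (AT2G38530), a lipid transfer protein of the epidermis, was at 50.9, 52.9 and 58.5 CPM in WT and 160.4, 141 and 175 CPM in era1 and rose by 1.55 ± 0.14 (FDR = 5.34e-09). The wax synthesis enzyme CER1 (AT1G02205) was at 159, 140.5 and 130.3 CPM in WT and 263, 275 and 231 CPM in era1 and rose by 0.84 ± 0.16 (FDR = 0.000287). Neither gene overlapped between the groups. Enzymes of fatty acid elongation and wax ester synthesis, KCS2 (AT1G04220) and WSD1 (AT5G37300), rose by 1.21 ± 0.23 (FDR = 0.000242) and 1.0 ± 0.20 (FDR = 0.000572). The factor SHN3 (AT5G25390), of a family that switches on cuticle genes, rose from 1.63, 2.36 and 0.833 CPM to 16.2, 16.6 and 15.9 CPM (3.32 ± 0.30, FDR = 9.75e-09).

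Genes of nitrate uptake and assimilation were examined because the dose was nitrate. Of 16 tested transport genes 4 were called higher and 1 lower, with a median of 0.23. The dual-affinity transceptor NRT1.1 (AT1G12110) was at 80.7, 82.2 and 79.7 CPM in WT and 85.7, 80.9 and 78.6 CPM in era1 and was not called (0.02, FDR = 0.92). The anion channel SLAH3 (AT5G24030) stood at 4.70, 6.85 and 3.12 CPM in WT and 15.7, 17.6 and 18.4 CPM in era1 and rose by 1.82 ± 0.19 (FDR = 7.86e-08). NRT1.5 (AT1G32450), which loads nitrate into the xylem, rose by 0.99 ± 0.18 (FDR = 0.000163), and WR3 (AT5G50200), also known as NRT3.1 and partner of the high-affinity transporters, rose by 0.99 ± 0.20 (FDR = 0.000661). The vacuolar exchanger CLC-A (AT5G40890) fell by 0.32 (FDR = 0.00627). The root-specific transporter NRT2:1 had 1 and 3 counts.

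Of 33 tested genes of nitrate response and nitrogen assimilation 6 were called higher and 9 lower, with a median of -0.02. The nitrate-induced scaffold proteins BT1 (AT5G63160) and BT2 (AT3G48360) fell the most. BT1 stood at 219, 153 and 180.3 CPM in WT and 55.0, 60.3 and 55.9 CPM in era1, and BT2 at 42.7, 23.1 and 25.2 CPM in WT and 9.95, 5.11 and 10.4 CPM in era1. Neither overlapped, and the fold changes were -1.69 ± 0.18 (FDR = 1.69e-07) and -1.84 ± 0.26 (FDR = 6.98e-06). Nitrate reductase NIA1 (AT1G77760) was at 521, 387 and 423 CPM in WT and 323, 252 and 303 CPM in era1 and fell by 0.60 (FDR = 0.00596), while NIA2 (AT1G37130) was not called (0.05). Nitrite reductase NIR1 (AT2G15620) was at 0.38 ± 0.11 (FDR = 0.0133), with the era1 library 2 just above the WT range. The ammonium transporter AMT1;1 (AT4G13510) fell by 0.88 on the log2 scale (FDR = 3.69e-08). Cytosolic glutamine synthetase rose, with GLN1.3 (AT3G17820) at 0.95 ± 0.12 (FDR = 1.68e-06), and the plastid form GS2 (AT5G35630) fell by 0.21 (FDR = 0.0223). The amino acid transporter LHT1 (AT5G40780) rose from 1.84, 3.85 and 1.46 CPM to 7.93, 7.76 and 7.15 CPM (1.68 ± 0.30, FDR = 0.000149).

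Photosynthesis transcripts encoded in the nucleus were lower by small amounts. Of 44 tested members 21 were called lower and none higher, with a median of -0.17, and 2 were called higher without the era1 library 2. LHCA1 (AT3G54890), an antenna protein of photosystem I, was at 2922, 2820.3 and 2845 CPM in WT and 2055, 2107 and 1956 CPM in era1. Its fall of 0.49 (FDR = 6.33e-06) was the largest in the list. The Calvin cycle kinase PRK (AT1G32060) fell by 0.33 (FDR = 0.000194). Of 84 tested genes of the chloroplast genome 13 were called higher and 7 lower. The count of higher ones was 3 without the era1 library 3, 3 without the WT library 3 and 7 without the WT library 1, that of lower ones was 4 without the era1 library 1, and era1 library 3 carried the highest levels. ATCG00730, for instance, was at 19.6, 21.8 and 17.1 CPM in WT and 40.5, 32.1 and 72.5 CPM in era1. Libraries were made from polyA-selected RNA, which captures plastid transcripts poorly. Organelle genes took 2.09% ± 0.148 of the gene counts in WT and 2.17% ± 0.349 in era1 (SD, n = 3, exact permutation p = 0.8). Of 13 cytosolic ribosomal genes 1 was called lower and none higher, with a median of 0.03. Without the WT library 1 the lower ones numbered 2, and without the era1 library 2 there was 1 higher.

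Clock, growth and flowering lists had medians between -0.11 and 0.17, with members called in both directions. The morning genes LHY (AT1G01060) and CCA1 (AT2G46830) were at -0.14 and -0.06 (FDR = 0.152 and 0.566) and were not called. LHY had 469, 495 and 467 CPM in WT and 432, 474 and 389 CPM in era1. The genotypes thus overlapped in this gene, though not in all clock genes. Of 20 clock genes 4 were called higher and 3 lower. GI (AT1G22770) rose from 11.4, 12.8 and 12.3 CPM to 23.4, 27.2 and 22.5 CPM (1.0 ± 0.13, FDR = 3.08e-06), and RVE1 (AT5G17300), which links the clock to auxin synthesis, fell from 89.3, 88.2 and 90.8 CPM to 31.9, 26.6 and 26.8 CPM (-1.65 ± 0.10, FDR = 9.16e-12). Of 17 auxin response genes 1 was called higher and 4 lower, with the repressors AXR3 (AT1G04250) and IAA7 (AT3G23050) at -0.54 ± 0.10 (FDR = 0.000259) and -0.40 ± 0.07 (FDR = 0.000134). Of 22 brassinosteroid genes 4 were called higher and 3 lower, and 2 were higher without the era1 library 1. The growth-promoting bHLH proteins PRE5 (AT3G28857) and PRE1 (AT5G39860) went opposite ways, at 0.93 ± 0.18 (FDR = 0.000357) and -0.63 ± 0.13 (FDR = 0.000625), and BEE2 (AT4G36540) fell by 0.63 (FDR = 4.02e-06). Of 15 genes of cell division and DNA replication 1 was called each way, and both calls were lost in most other settings.

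Of 18 flowering time genes 3 were called higher and 5 lower, with a median of 0.09. SPL5 (AT3G15270), a target of miR156 that marks the adult phase, was at 2.25, 1.93 and 1.87 CPM in WT and 10.8, 12.7 and 9.83 CPM in era1 and rose by 2.45 ± 0.24 (FDR = 3.08e-08). The repressors of the FLC family MAF5 (AT5G65080) and MAF4 (AT5G65070) were lower. MAF5 was at 34.9, 26.8 and 24.2 CPM in WT and 7.42, 4.94 and 8.04 CPM in era1, and MAF4 at 5.52, 5.35 and 9.16 CPM in WT and 1.52, 1.59 and 1.25 CPM in era1. They fell without overlap, by 2.07 and 2.18 on the log2 scale (FDR = 4.56e-09 and 5.17e-05), although these neighbouring copies are alike and reads may be shared. The floral integrator SOC1, listed as AGL20 (AT2G45660), fell by 0.78 (FDR = 9.71e-05). The floral organ gene AG was at 1.63, 2.78 and 4.16 CPM in WT and 0.169, 1.06 and 0.357 CPM in era1, a fold change of -2.40 ± 0.52 (FDR = 0.00114), and -3.34 without the era1 library 2. The part of floral tissue in the other differences was not tested.

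Glucosinolates are sulfur-rich defence compounds. Their list had 6 of 30 members called higher and 3 lower, with a median of -0.05, and 3 higher without the era1 library 3. The regulator of aliphatic compounds MYB29 (AT5G07690) was at 35.8, 30.4 and 41.0 CPM in WT and 56.5, 40.6 and 67.5 CPM in era1 and rose by 0.62 ± 0.16 (FDR = 0.00579), with groups that overlapped and a call lost without the era1 library 3 (0.44, FDR = 0.0626). IMS2 (AT5G23020), of methionine chain elongation, rose by 0.59 ± 0.15 (FDR = 0.00349), and CYP83B1 (AT4G31500), of the indolic core pathway, by 0.29 ± 0.08 (FDR = 0.00659). CYP79F2 (AT1G16400), of the aliphatic core pathway, fell by 0.53 (FDR = 0.00193). The regulator of indolic compounds MYB51 (AT1G18570) fell from 14.7, 17.1 and 18.1 CPM to 9.11, 7.94 and 7.86 CPM (-1.0 ± 0.16, FDR = 3.32e-05).

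Some of the largest differences belonged to genes outside the lists. The nudix hydrolase NUDT24 (AT5G19470) had 0 counts over the WT libraries and 11.1, 15.5 and 10.9 CPM in era1, at least 59.9-fold higher against the floor of 3 counts over the group. PPI2 (AT3G15340), a proton pump interactor, stood at 0.204, 0.642 and 1.25 CPM in WT and 18.9, 21.0 and 20.5 CPM in era1. Its fold change was 4.81 ± 0.42 (FDR = 4.2e-09), and 5.51 without the WT library 3. PYD4 (AT3G08860), of the pyrimidine degradation pathway, rose from 1.02, 1.71 and 1.67 CPM to 12.3, 9.70 and 11.1 CPM. The serine carboxypeptidase-like scpl31 (AT1G11080) fell from 15.3, 7.92 and 11.2 CPM to 1.52, 1.23 and 2.50 CPM (-2.71 ± 0.33, FDR = 9.62e-07), and NAC004 (AT1G02230) from 19.6, 17.3 and 21.7 CPM to 3.54, 3.35 and 4.29 CPM (-2.39 ± 0.18, FDR = 4.71e-10).

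Genes without a symbol went further. AT1G64795, annotated only as an uncharacterized protein, had 0 counts over the WT libraries and 240, 210 and 264 in the era1 libraries, at least 199-fold higher. AT1G75945, likewise uncharacterized, was at 0.817, 1.07 and 0.625 CPM in WT and 66.1, 71.1 and 61.1 CPM in era1, a fold change of 6.27 ± 0.22 (FDR = 2.96e-16). AT4G23680, annotated in a polyketide cyclase and lipid transport family, was at 84.8, 73.2 and 69.1 CPM in WT and 702, 782 and 673 CPM in era1. It rose by 3.25 ± 0.13 (FDR = 1.03e-14). Against these, a tandem group annotated in the lipid-transfer and seed storage albumin family was nearly lost. AT4G22513 was at 20.4, 30.6 and 35.0 CPM in WT and 0.337, 0.705 and 0.179 CPM in era1, AT4G22490 at 52.3, 67.0 and 101 CPM in WT and 4.39, 5.29 and 2.68 CPM in era1 and AT4G22517 at 26.8, 32.8 and 51.8 CPM in WT and 0.169, 1.59 and 0.536 CPM in era1. No era1 library came near the WT range, and the fold changes were -6.06, -4.15 and -5.57, with AT4G22485 and AT4G22505 at -5.39 and -5.75. Such neighbours may share reads. The cupin gene AT5G38930 had 63 counts over the WT libraries and 0 over the era1 libraries, at least 25.1-fold lower, and its neighbour AT5G38940 had 149 and 3. AT1G47395 and AT1G47400, annotated as uncharacterized proteins, fell by 2.36 and 1.68 on the log2 scale, from 558, 494 and 494 CPM to 85.0, 118 and 97.6 CPM for the first. They had been written into the iron and copper list as IMA2 and IMA1. The reference table holds neither name, so the counts of that list leave them out.

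The same contrast was then read at 2 and 0 mM to see how the differences depended on the dose. Each dose has its own WT and era1 libraries. Of the 2831 genes higher at 10 mM, 767 were also called higher at 2 mM. They made up 27.1% of the 10 mM list, beside 10.9% of all tested genes called higher at 2 mM. Of the 2 mM list they made up 38.2%, beside 15.4% of all tested genes called higher at 10 mM. At 0 mM the higher genes shared with 10 mM numbered 1128. They were 39.8% of the 10 mM list, beside 24.5% of all tested genes called higher at 0 mM. Of the 0 mM list they were 25.1%, beside 15.4% of all tested genes called higher at 10 mM. Of the 2627 lower genes 705 were called lower at 2 mM. They were 26.8% of the 10 mM list, beside 11.1% of all tested genes called lower at 2 mM. Of the 2 mM list they were 34.7%, beside 14.3% of all tested genes called lower at 10 mM. At 0 mM 1159 lower genes were shared. They were 44.1% of the 10 mM list, beside 24.6% of all tested genes, and 25.6% of the 0 mM list, beside 14.3%. The opposite call was found at 2 mM for 105 higher and 259 lower genes, 3.7% and 9.9% of the 10 mM lists. Of all tested genes 11.1% and 10.9% were called that way there. At 0 mM it was found for 531 and 378 genes, 18.8% and 14.4%, beside 24.6% and 24.5% of all tested genes. Opposite calls were thus less frequent in these lists than over all tested genes. At all 3 doses 526 genes were higher and 568 lower. Of the genes changed by at least 4-fold at 10 mM, 65 of 108 higher and 26 of 97 lower ones were called the same way at all doses. The genotype effect was more positive at 10 than at 2 mM for 1485 genes and more negative for 1413 (8.09% and 7.7% of tested genes, interaction test). The first count fell to 926 without the WT library 2. Against 0 mM the counts were 3542 and 2863 (19.3% and 15.6%). Between doses the clock marker LHY also differed, at 477 CPM in WT at 10 mM, 29.4 CPM at 2 mM and 740.0 CPM at 0 mM, and its part in these differences was not tested.

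Some differences were called at each dose. For HSFA2 the values were 4.36, 5.47 and 3.63 in the order 10, 2 and 0 mM, and Hsp70-2 at 3.69, 3.78 and 3.99. DFR was at 2.44, 2.74 and 3.08. AT1G75945 was at 6.27, 6.50 and 6.11. NAS3 was at 1.95, 1.98 and 1.86. All of these were called at each dose, and none of their interactions was (FDR of 0.0731 or more for HSFA2, Hsp70-2, DFR, NAS3 and AT1G75945). For other members of the same lists an interaction was called. Over all tested genes it was called against 2 mM for 8.09% (more positive at 10 mM) and 7.7% (more negative). Against 0 mM these shares were 19.3% and 15.6%, so some list counts below lie near or under the share over all genes. Called higher were 10.9% of all tested genes at 2 mM and 24.5% at 0 mM. Of the 26 heat shock members 19 were called higher at 2 mM and 17 at 0 mM, and 12 differed from 2 mM and 10 from 0 mM by the interaction test. Of the 26 anthocyanin members 2 differed from 2 mM and 12 from 0 mM. PAP1 was among both, with interactions of 1.18 (FDR = 0.00286) and 0.80 (FDR = 0.00317).

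Sulfur deficiency genes differed in this respect, with 2 called higher and 1 lower at 2 mM and 3 called each way at 0 mM, against 11 higher and none lower at 10 mM. For LSU1 the effect of 3.63 at 10 mM compared with -0.08 under 2 mM and -1.17 under 0 mM, and it differed from both (interaction FDR = 2.32e-05 and 3.29e-07). Of the 12 sulfur members 7 differed from 2 mM and 10 from 0 mM by the interaction test. FSD1 was at 0.94 and 1.03 at 2 and 0 mM, with neither called. Its interactions were 7.41 (FDR = 0.00478) and 7.32 (FDR = 6.9e-05). The bHLH factors differed from 2 mM but not detectably from 0 mM. bHLH38 was at 0.90 at 2 mM (FDR = 0.124) and at -4.60 at 0 mM (FDR = 2.14e-07), with interaction FDR of 1.16e-07 and 0.879. For AT5G03545 the effect was -1.13 and -1.29 at the lower doses, called at each, and smaller than at 10 mM (interaction FDR = 1.53e-06 and 3.08e-05). The WT level itself differed between doses. For AT5G03545 the means at 10, 2 and 0 mM were 386, 25.5 and 11.2 CPM in WT and 30.2, 11.7 and 4.61 CPM in era1. For bHLH38 they were 85.2, 5.98 and 17.8 CPM in WT and 2.90, 11.4 and 0.718 CPM in era1.

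At 2 mM 11 of the 26 salicylic acid members were called higher and 1 lower, and at 0 mM 2 higher and 8 lower. The effect at 10 mM differed from that at 2 mM for 20 members. Over all tested genes 10.9% were called higher and 11.1% lower at 2 mM, and 24.5% and 24.6% at 0 mM. WRKY70 was at -1.73, 0.66 and -0.91 at 10, 2 and 0 mM, each called, and EDS1 at -1.23, 0.44 and -0.72. DMR6 was lower at 2 mM too (-0.70, FDR = 0.000472), and WRKY54 was not called there (0.45, FDR = 0.162). Of the abscisic acid outputs 11 were called higher and none lower at 2 mM, and at 0 mM 8 were called higher and 8 lower. RD20 was at 0.89 and -0.42, and LTI65 at 1.74 and -2.32, at 2 and 0 mM. Of the 11 cuticle genes 6 were called higher at 10 mM and 9 were called lower at 0 mM, and 10 had an effect that differed between these doses by the interaction test. LOX2 had 1.63 at 10 mM, then 0.37 and -0.95 at the lower doses. The jasmonate list had 19 of 29 members called higher at 2 mM, with a median of 0.82, and 3 higher and 6 lower at 0 mM. Nuclear photosynthesis genes were lower at each dose, with 21 of 44 called at 10 mM, 35 at 2 mM and 44 at 0 mM.

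**Figure D5:**
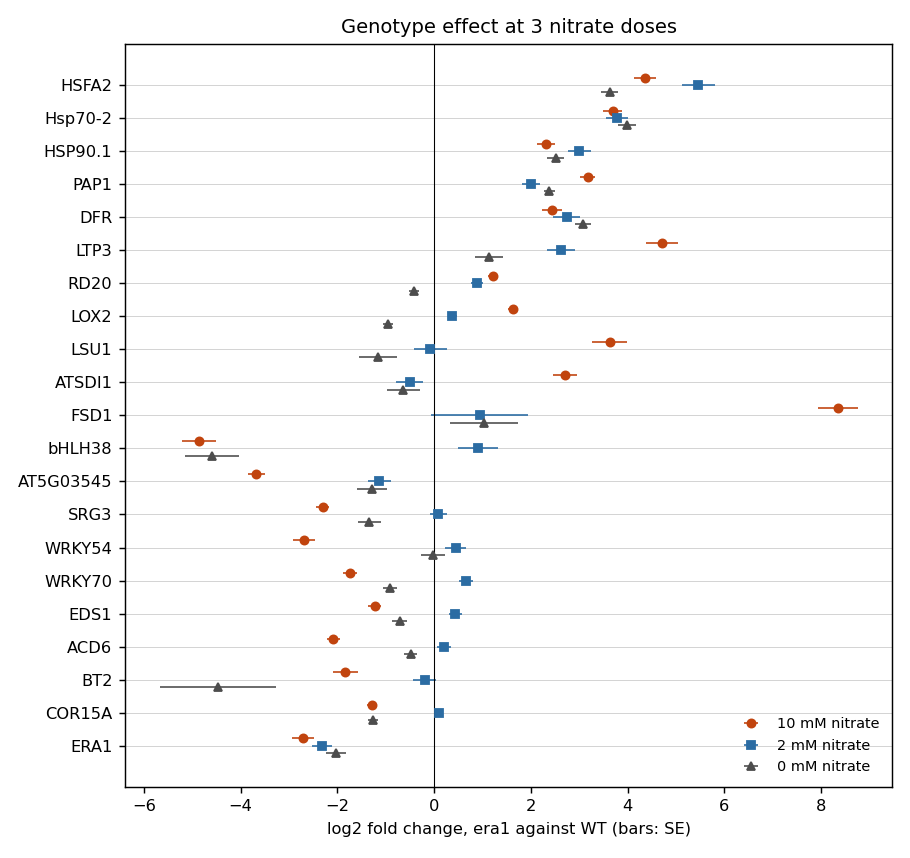
Log2 fold change of era1 against WT (horizontal axis, bars are SE) at 10, 2 and 0 mM nitrate for 21 genes. HSFA2, Hsp70-2, HSP90.1, PAP1 and DFR lie to the right of 0 at each dose and ERA1 to the left, whereas LSU1, ATSDI1 and FSD1 lie furthest right at 10 mM and WRKY70 and EDS1 lie to the right at 2 mM.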

How the data were processed

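Per the labels' protocols, stranded QuantSeq 3' libraries were sequenced single-end from polyA RNA. The authors deposited raw counts per gene in the layout of HTSeq, after alignment with TopHat2 to TAIR10, per the submitters' processing notes. The sources used here do not give tool versions, filters or the strand setting of the counting. Entries that name no gene were left out of totals and tests; at 10 mM reads outside features took 3.75% to 4.23% of read records, reads without a unique alignment 1.89% to 2.81% and ambiguous ones 0.131% to 0.141%. Gene names came from the RefSeq table of TAIR10.1, which held 32548 of 32744 IDs, 10804 of them with a symbol. Of 648 entries in 31 lists, 622 matched by ID and name.

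All 18 libraries entered 1 edgeR 4.0.16 quasi-likelihood model of 6 groups (R 4.3.3, limma 3.58.1) with TMM scaling, filterByExpr (minimum count 10, minimum total 15) and Benjamini-Hochberg adjustment over all genes tested, at FDR 0.05. CPM used TMM-scaled totals. Single values per library were tested by two-sided exact permutation. Folds against 0 counts used a floor of 3 counts per group. Intervals and floors cover counting error only. The steps were tested on simulated data. Alternatives were DESeq2 1.42.0, its size factors, no filter, only the 10 mM libraries, a replicate block, each library left out and 2 settings added after seeing the data.

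Members and lists were chosen with earlier results of these data known. By rule, the named genes were up to 15 highest and 15 lowest called genes with a symbol, at least 5 CPM on average and no overlap between groups. Each list added up to 4 called members with the greatest change and up to 2 in the opposite direction, or, with no call, the 2 of highest mean CPM. The prenylation enzymes, J2, J3 and the labelled locus were included, as were up to 6 called genes with the largest interaction called against both doses. Other genes, among them WRKY70, EDS1, RD20, DFR, APR1, APR2, APR3, NIA1, LHY, CCA1 and those without a symbol, were chosen after their values were seen. Promoter motifs and CaaX endings were not analysed here.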

Additional observations from a re-analysis of the deposited data

Results flagged for a closer look

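The genotype effect at 10 mM differed from that at another nitrate dose, by the interaction test of edgeR with Benjamini-Hochberg adjustment, for many genes. Against 2 mM 1485 genes had a more positive and 1413 a more negative effect at 10 mM, and against 0 mM the counts were 3542 and 2863. Of the 148 called genes among those named by rule, 69 had an effect that differed from 2 mM, 84 from 0 mM and 45 from both. The rules favoured genes with a large change at 10 mM, which is part of the interaction, so the selection can raise these counts. Some genes were also named because their interaction was called against both doses. Among all genes called at 10 mM, 605 of 2831 higher ones had a more positive effect there than at both other doses by the interaction test. Of 2627 lower ones, 524 had a more negative effect at 10 mM than at both. Interactions in other directions are left out here, whereas the 69, 84 and 45 named genes took either direction.

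Among the named genes with an interaction called against both doses was FSD1, the plastid iron superoxide dismutase, at 7.41 against 2 mM and 7.32 against 0 mM on the log2 scale. MGDC (AT2G11810), a galactolipid synthase of phosphate starvation, was at 0.409, 2.78 and 2.91 CPM in WT and 0.337, 0.353 and 0.715 CPM in era1. Its groups overlapped, its call at 10 mM was lost in 3 settings, and its interactions were -2.43 and -5.52. JAZ4 (AT1G48500), a jasmonate repressor, had 0 counts over the WT libraries and 15 over the era1 libraries, so its interactions of 5.57 and 4.43 are fitted values without a bound. GLYI4 (AT1G15380), of the glyoxalase family, was at 18.2, 13.9 and 10.4 CPM in WT and 6.24, 9.17 and 5.72 CPM in era1, with interactions of -2.36 and -4.86, but its call at 10 mM was lost in 6 settings. For the receptor-like protein RLP43 (AT3G28890) the interactions were -3.84 and -4.34, and for the sulfur marker LSU1 they were 3.71 and 4.80.

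At both other doses 6 named genes were called in the direction opposite to 10 mM. NAC004 fell at 10 mM and was at 0.91 and 1.84 at 2 and 0 mM, with interactions of -3.29 and -4.22. For the unfolded protein regulator BZIP60 the interactions were -1.21 and -0.89. In the glucosinolate pathway they were -2.13 and -1.46 for MYB51 and -1.10 and -1.08 for CYP79F2. The genes that rose at 10 mM were HMG1, with 0.59 and 0.56, and NCED4, with 0.71 and 1.29.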

How the results depend on the processing

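With 2831 genes called higher and 2627 lower, 13 alternatives moved either count by less than 1.5 times, from 2082 to 3215 higher and from 1962 to 3314 lower. The exception among the interaction counts was the number more positive at 10 than at 2 mM, 1485, which was 926 without the WT library 2 and spanned 926 to 1648 over fits that left out a library. The cause was not tested. Deviations of same-numbered libraries correlated at -0.0177, 0.0289 and 0.0519, within the range of differently numbered pairs, -0.0855 to 0.0571. With 3 libraries a group these values cannot decide whether the numbers mark a pairing, which the labels do not state. A replicate block gave 2768 higher and 2595 lower genes. Of 148 called named genes 117 were called the same way in every setting that tested them (JAZ4 and PRR3 in 11 of 13 settings, AG in 12), and 31 lost the call in at least 1. Some genes that were not called turned sign. RGTA1 was at -0.0004 with no low-count filter. Over fits that left out a library, RGTA1 ran from -0.10 to 0.13, PYK10 from -0.054 to 0.27, RGTB2 from -0.46 to 0.012, FACE2 from -0.064 to 0.29 and ICME-LIKE2 from -0.086 to 0.32. The clock gene PRR3 moved from 2.49 to 3.35 without the WT library 3 and the chloroplast gene ATCG00250 from 1.6 to 0.78 (FDR = 0.362) without the era1 library 3, and DESeq2 put JAZ4 at 4.49, NUDT24 at 8.33 and MYB113 at 3.40. At these depths genes near or below 1 CPM rest on few reads. Fits of only the libraries at 10 mM give no interaction. DESeq2 called 2102 genes higher and 2268 lower.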
